A study of Homo sapiens with 9 samples.

Results

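The genes described here are 36 human genes of the hypoxia response and of glycolysis, taken by symbol from a list of oxygen sensors, hypoxia-induced genes, glucose transport and glycolytic enzymes. All 36 were found once each among the 57773 genes of the deposited table, and 29 of them passed a filter of at least 1 RPKM (a read count divided by gene length in kilobases and by library size) in at least 3 libraries. The other 7, EPAS1, EGLN3, VEGFA, CA9, CA12, ALDOC and PDK1, were expressed too little to be tested and are given by their levels. The RNA was that of OVCAR-8, a long-established line of human ovarian carcinoma, collected 48 h after siRNA transfection. The groups were CDK12-2 siRNA, CDK12-6 siRNA (independent siRNAs against the kinase CDK12) and control luciferase siRNA, with 3 libraries each under the numbers AK39, AK41 and AK49, 9 in all. The labels name no other treatment or genetic change in any group. Because they call the 3 libraries of a group technical replicates, a p-value here weighs a difference against variation among libraries that may be technical, and not among separate cultures. The library kit named in the labels enriches polyadenylated RNA and keeps no record of strand.

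Cells sense oxygen through the alpha subunits of hypoxia-inducible factor (HIF). With oxygen present, prolyl hydroxylases of the EGLN family mark these subunits for capture by VHL and for degradation, and without it they accumulate, pair with ARNT and bind short DNA motifs near their target genes. Among the classical targets are secreted factors such as VEGFA and adrenomedullin, the glucose transporter SLC2A1 and most enzymes that turn glucose into lactate, a pathway on which many tumour cells rely even in oxygen.

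The letters that HIF binds, ACGTG or GCGTG, were searched on both strands (as CACGT or CACGC on the other one) in RefSeq promoters of build GRCh38.p14, each running from 250 bases before to 50 bases after a listed start. Promoters were listed for 31 of the 36 genes, at 54 starts, but not for VHL, VEGFA, NDRG1, BNIP3L and STC1. At least 1 match lay in 37 of the 54 promoters (68.5%), against 61.9% of the 12530 promoters of tested genes and 48.4% of all 35116 promoters. CACGTG, a palindrome in which ACGTG and CACGT overlap and count once each, lay in 8 of the 54 (14.8%), against 9.67% of the promoters of tested genes. A match is a description of these letters and not a measured binding site. The promoters below belong to 3 genes that rose and 2 that fell with CDK12 siRNA, each at the listed start with the most matches. They are written 5′ to 3′ on the strand of the gene, with the matches in capitals. STC2 (chr5:173328365-173328664, minus strand) has 3 matches, DDIT4 (chr10:72273674-72273973, plus strand) has 4, and SLC2A1 (chr1:42958819-42959118, minus strand) has 1. ENO2 (chr12:6914330-6914629, plus strand) has 1 match, at 118 bases before its start, and LDHA (chr11:18394313-18394612, plus strand) has 6, of which 4 form 2 copies of CACGTG.
STC2: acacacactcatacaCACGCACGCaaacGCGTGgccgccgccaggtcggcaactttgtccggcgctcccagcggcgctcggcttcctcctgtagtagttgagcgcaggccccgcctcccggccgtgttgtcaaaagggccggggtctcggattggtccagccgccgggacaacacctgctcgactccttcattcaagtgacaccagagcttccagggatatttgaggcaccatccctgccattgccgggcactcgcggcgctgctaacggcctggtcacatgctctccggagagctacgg
DDIT4: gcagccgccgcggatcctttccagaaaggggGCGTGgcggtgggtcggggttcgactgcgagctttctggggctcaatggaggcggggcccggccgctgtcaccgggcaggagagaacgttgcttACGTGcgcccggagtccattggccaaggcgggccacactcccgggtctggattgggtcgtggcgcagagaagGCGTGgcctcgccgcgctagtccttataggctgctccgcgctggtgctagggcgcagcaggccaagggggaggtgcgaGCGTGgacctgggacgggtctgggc
SLC2A1: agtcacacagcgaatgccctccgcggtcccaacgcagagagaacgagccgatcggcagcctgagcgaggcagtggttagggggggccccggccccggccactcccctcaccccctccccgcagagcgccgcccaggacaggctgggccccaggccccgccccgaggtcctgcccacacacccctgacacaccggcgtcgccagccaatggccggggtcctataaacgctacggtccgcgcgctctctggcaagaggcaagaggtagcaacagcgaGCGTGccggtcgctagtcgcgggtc
ENO2: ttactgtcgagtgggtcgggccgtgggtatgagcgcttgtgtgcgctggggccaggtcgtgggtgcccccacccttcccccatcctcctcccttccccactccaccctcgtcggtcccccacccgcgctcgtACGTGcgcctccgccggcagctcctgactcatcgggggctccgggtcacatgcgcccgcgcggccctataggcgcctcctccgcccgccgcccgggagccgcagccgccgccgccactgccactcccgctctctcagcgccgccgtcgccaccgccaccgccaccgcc
LDHA: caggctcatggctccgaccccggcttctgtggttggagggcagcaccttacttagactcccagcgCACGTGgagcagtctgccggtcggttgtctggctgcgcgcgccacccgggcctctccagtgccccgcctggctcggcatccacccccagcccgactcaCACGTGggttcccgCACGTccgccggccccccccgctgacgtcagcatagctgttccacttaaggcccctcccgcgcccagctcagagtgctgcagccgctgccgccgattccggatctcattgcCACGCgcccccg
Promoters of genes of both directions held the letters: 4 of 4 starts of genes that rose, 13 of 21 starts of genes that fell, and 15 of 22 starts of genes that did not pass the test. Genes with several listed starts, such as HK1 and PFKP, count more than once here. By gene, 29 of the 31 held a match at some start, all but EGLN3 and PGAM1. Every gene with a listed promoter that rose or fell thus held one. No such count by gene was made over all genes, and a gene with several starts is more likely to hold a match. Counted by start, 61.9% of those of genes that fell held one, as did 61.9% of the promoters of tested genes.

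CDK12, the targeted gene (ENSG00000167258, hg19 chr17:37617764-37721160), checked the labels. It had 2.06, 2.57 and 2.70 RPKM in the CDK12-2 libraries and 2.09, 2.37 and 2.75 RPKM in the CDK12-6 libraries, against 8.33, 7.09 and 8.40 RPKM in the luciferase libraries (in the order AK39, AK41, AK49, which all later lists keep). Its mean was 69.5% lower with both siRNAs than with luciferase siRNA. In units of 1000000 reads the libraries held 130.7 to 173.4, of which 68.2% to 82.7% lay in listed genes. Of the ovarian and epithelial markers PAX8 (7.64 RPKM with CDK12 siRNA and 7.73 RPKM with luciferase siRNA), KRT8 (224 and 225 RPKM) and KRT18 (151 and 166 RPKM) were present, WT1 was low (0.886 and 0.868 RPKM) and MUC16 was near 0. KRT7 (68.9 and 49.2 RPKM) and EPCAM (3.68 and 2.59 RPKM) rose and MSLN (14.7 and 29.1 RPKM) fell by limma at an adjusted p under 0.05, and their part in the results was not tested. Leukocyte PTPRC and hepatocyte ALB were at most 0.0710 RPKM in any library, and DES of muscle was at 0.284 to 0.455 RPKM. In each group 1 library had the most RNA of the kinds that lack a poly(A) tail: CDK12-2 AK39 with 843, CDK12-6 AK39 with 827 and luciferase AK41 with 629 reads per 1000000, against 160 to 561 in the other 6 libraries.

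Against luciferase siRNA, the stanniocalcins STC1 and STC2, DDIT4, ANKRD37 and the glucose transporter SLC2A1 rose with the CDK12 siRNAs, and 8 enzymes from hexokinase to lactate dehydrogenase fell, as did ADM. Tested by limma on log2(RPKM + 1) with Benjamini-Hochberg adjustment over 15208 genes and a threshold of 0.05, 5 of the 29 tested members rose and 9 fell with both siRNAs in 1 contrast. Among all genes tested 13.3% rose and 19.7% fell. The median log2 fold change was -0.18 over the 29 members and -0.04 over all genes tested. The members' directions differed between the roles assigned here. Of 8 hypoxia-induced genes 4 rose and 1 fell, with a median of 0.20. Of 17 genes of glucose entry and glycolysis up to pyruvate 1 rose and 7 fell, with a median of -0.24. SLC2A1, ENO2 and PGK1, which are HIF targets too, were counted among the 17. The counts by role are small and stand beside the 13.3% and 19.7% of all genes. These counts and medians include STC1, which passed the filter only through the CDK12 siRNA libraries and could be tested only as higher there. The further lists given below did not differ in this way. Of 23 further HIF targets 3 rose and 4 fell, with a median of -0.00026. Of 13 further glycolysis and lactate genes 3 rose and 4 fell, with a median of 0.0085. Scaled to the reads in listed genes, or quantile normalized, 8 members rose and 9 fell in place of 5 and 9. Scaled in the first way, 3391 of all genes rose and 3149 fell, against 2027 and 2997 as deposited. Without luciferase AK39, or without luciferase AK49, 4 members fell in place of 9, and without luciferase AK41, 3 rose in place of 5. The shares of all genes shrank too: 10.8% fell without luciferase AK39 and 12.5% without AK49, and 9.96% rose without AK41.

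**Figure D1:**
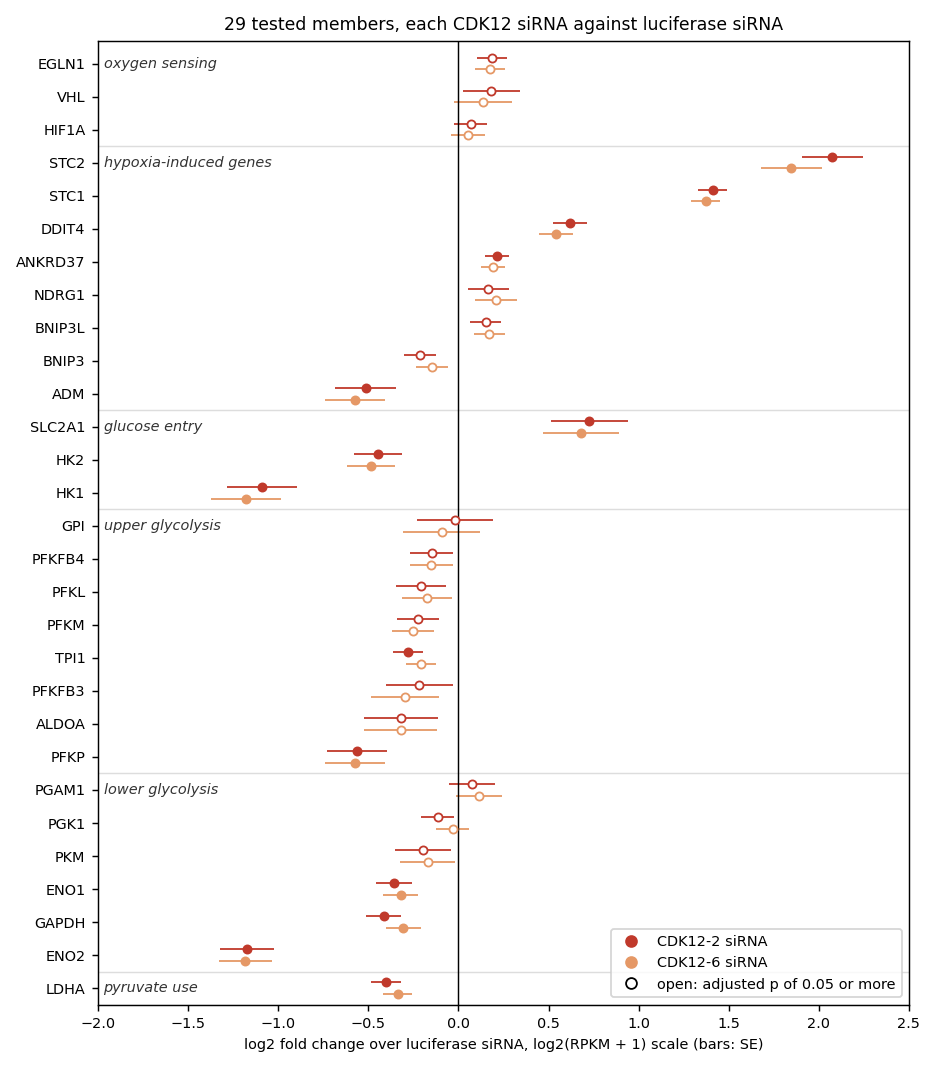
Log2 fold change of the 29 tested members over luciferase siRNA on the log2(RPKM + 1) scale, for CDK12-2 and CDK12-6 siRNA, ordered by role (bars: SE, filled points: adjusted p under 0.05). STC2 and STC1 stand farthest to the right, HK1 and ENO2 farthest to the left, and the points of both siRNAs lie side by side for each gene.

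Of all 36 members, tested or not, 9 had every CDK12 siRNA library above every luciferase library, 10 had every one below, and 17 overlapped. Among the 29 tested members 6 lay above and 9 below, and among all genes tested these patterns held for 14.3% and 19.9%. In bulk libraries, fewer cells holding an RNA and less of it per cell cannot be told apart.

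None of the 3 tested oxygen sensors, HIF1A, EGLN1 and VHL, passed the test. HIF1A, the main alpha subunit (ENSG00000100644, chr14:62162231-62214976), had 46.2, 55.1 and 55.9 RPKM in the CDK12-2 libraries and 48.8, 54.1 and 52.4 RPKM in the CDK12-6 libraries, against 51.6, 48.5 and 49.4 RPKM in the luciferase libraries. The groups overlapped, and the log2 fold change was 0.06 with a 95% interval of -0.12 to 0.24 (adjusted p = 0.61). Antisense and other transcripts overlap the span of HIF1A, RP11-618G20.1 at 134 RPKM among them, and without strand their reads cannot be told apart from those of HIF1A. EPAS1, the alternative alpha subunit (ENSG00000116016, chr2:46520806-46613836), was far lower in level. It had 0.357, 0.490 and 0.627 RPKM in the CDK12-2 libraries and 0.343, 0.441 and 0.581 RPKM in the CDK12-6 libraries, against 0.241, 0.200 and 0.262 RPKM in the luciferase libraries. All 6 CDK12 siRNA libraries lay above the controls, at a mean ratio of 2.02, and the authors' deposited table gives a log2 fold change of 0.99 with a false discovery rate of 3.1e-05. With no filter on low values limma did not call EPAS1.

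EGLN3, an inducible HIF prolyl hydroxylase, also lay higher at a low level, at 0.521 ± 0.0642 RPKM with CDK12 siRNA (SD, n = 6) and 0.203 ± 0.0161 RPKM with luciferase siRNA (SD, n = 3). The authors' deposited table gives it a log2 fold change of 1.34 with a false discovery rate of 1.7e-08, and with no filter on low values limma called it higher. Its span overlaps that of SPTSSA, which had 26.8 and 16.7 RPKM in the same groups. EGLN1, the main HIF prolyl hydroxylase in most cells, had 16.9 ± 0.974 RPKM with CDK12 siRNA and 14.7 ± 0.334 RPKM with luciferase siRNA. Its groups did not overlap, but the log2 fold change of 0.18 missed the threshold (adjusted p = 0.077), while it passed under both other scalings (adjusted p = 0.0027 quantile normalized and 0.0043 scaled to reads in listed genes). VHL, the subunit that captures hydroxylated HIF, had 13.1 RPKM with CDK12 siRNA and 11.5 RPKM with luciferase siRNA, with overlapping groups (adjusted p = 0.41).

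Among the secreted and stress-induced HIF targets, 4 of 8 tested genes rose, where 13.3% of all genes did. STC1, a secreted glycoprotein hormone first known from calcium control in fish, had the largest ratio of mean RPKM among the tested members. It had 1.76, 1.93 and 2.23 RPKM in the CDK12-2 libraries and 1.70, 2.01 and 1.95 RPKM in the CDK12-6 libraries, against 0.114, 0.124 and 0.108 RPKM in the luciferase libraries. The groups were far apart, with a mean ratio of 16.7, and the log2(RPKM + 1) fold change of 1.39 ± 0.068 (SE, adjusted p = 3.1e-06) understates it because the controls lie near 0. STC1 passed the filter on low values only through the CDK12 siRNA libraries, so it could only have been tested as a gene that is higher there.

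STC2, its paralogue (ENSG00000113739, chr5:172741716-172756506 in hg19), had 8.08, 11.0 and 12.5 RPKM in the CDK12-2 libraries and 7.19, 8.39 and 10.9 RPKM in the CDK12-6 libraries, against 1.71, 1.48 and 1.92 RPKM in the luciferase libraries. Every CDK12 siRNA library lay above every control, at a mean ratio of 5.67 and a log2 fold change of 1.96 ± 0.15 (adjusted p = 2.2e-05). DDIT4, also called REDD1, an inhibitor of the growth kinase complex mTORC1 (ENSG00000168209, chr10:74033678-74035794), is induced by hypoxia and by other stresses. It had 2.17, 2.32 and 2.46 RPKM in the CDK12-2 libraries and 1.79, 2.21 and 2.48 RPKM in the CDK12-6 libraries, against 1.29, 1.12 and 1.06 RPKM in the luciferase libraries. The groups did not overlap, and the fold change was 0.58 ± 0.082 on the log2 scale (adjusted p = 0.00065), beside an overlapping transcript, RP11-442H21.2, with 3.32 and 1.62 RPKM in the same groups.

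ANKRD37, an ankyrin repeat protein and HIF target, changed least of the genes that rose. It had 2.06, 2.18 and 2.20 RPKM in the CDK12-2 libraries and 2.12, 2.19 and 1.98 RPKM in the CDK12-6 libraries, against 1.70, 1.74 and 1.70 RPKM in the luciferase libraries. The groups stood apart by a small step, with a log2 fold change of 0.20 ± 0.058 (adjusted p = 0.024). The call ended without any 1 of the luciferase libraries (adjusted p = 0.095 without AK39, 0.0595 without AK41 and 0.092 without AK49). For ANKRD37 the authors' deposited table gives a false discovery rate of 0.12. Its span overlaps that of UFSP2, which had 6.19 RPKM with CDK12 siRNA and 6.65 RPKM with luciferase siRNA.

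ADM, the vasodilator peptide adrenomedullin (ENSG00000148926, chr11:10326227-10328944), is a classical HIF target and fell. It had 25.0, 29.2 and 34.7 RPKM in the CDK12-2 libraries and 23.6, 27.1 and 34.7 RPKM in the CDK12-6 libraries, against 43.2, 36.4 and 48.6 RPKM in the luciferase libraries. The lowest control, AK41, lay just above the highest CDK12 siRNA library, and the log2 fold change was -0.55 ± 0.14 (adjusted p = 0.017). Without luciferase AK39 the adjusted p was 0.066, and without luciferase AK49 it was 0.085.

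The other hypoxia-induced genes did not pass or could not be tested. NDRG1, a stress-responsive gene, had 3.69 ± 0.449 RPKM with CDK12 siRNA and 3.11 ± 0.363 RPKM with luciferase siRNA (adjusted p = 0.18). BNIP3, a mitophagy receptor, had 20.7 ± 1.44 RPKM with CDK12 siRNA and 23.5 ± 1.44 RPKM with luciferase siRNA (adjusted p = 0.11). Its relative BNIP3L had 10.3 ± 0.544 RPKM with CDK12 siRNA and 9.12 ± 0.629 RPKM with luciferase siRNA (adjusted p = 0.13). All 3 had overlapping groups, and NDRG1 and BNIP3L passed as higher under both other scalings. VEGFA, the main angiogenic growth factor, stayed low at 0.449 ± 0.0496 RPKM with CDK12 siRNA and 0.558 ± 0.0642 RPKM with luciferase siRNA, and its groups overlapped. The span of VEGFA overlaps RP1-261G23.7, which had 0.831 and 1.02 RPKM in the same groups. The membrane carbonic anhydrases were close to silent: CA9, one of the most inducible HIF targets in epithelial tumours, was covered by 2 to 19 reads in a library, and CA12 had 0.215 RPKM with CDK12 siRNA and 0.168 RPKM with luciferase siRNA. The authors' deposited table gives false discovery rates of 0.051 for VEGFA, 0.10 for CA9 and 0.17 for CA12.

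**Figure D2:**
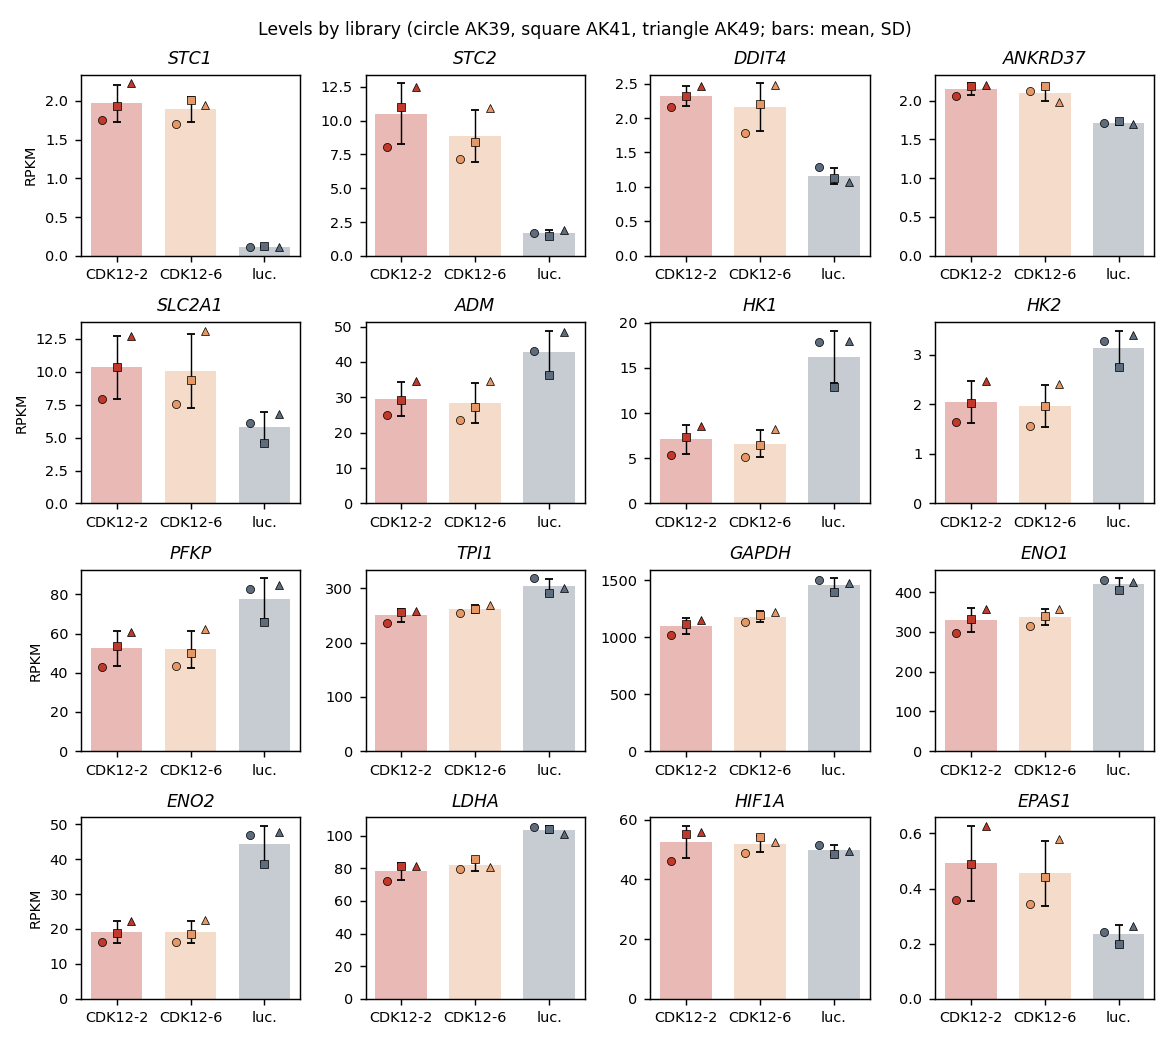
RPKM of 16 members in each library, with the mean and SD of CDK12-2, CDK12-6 and luciferase (luc.) siRNA. STC1, STC2, DDIT4, ANKRD37, SLC2A1 and EPAS1 lie above the controls in all 6 CDK12 siRNA libraries, ADM, HK1, HK2, PFKP, TPI1, GAPDH, ENO1, ENO2 and LDHA lie below, and HIF1A overlaps.

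At the entry of glucose, the transporter and the hexokinases moved apart. SLC2A1, the transporter GLUT1 (ENSG00000117394, chr1:43391052-43424530 in hg19), had 7.90, 10.4 and 12.7 RPKM in the CDK12-2 libraries and 7.59, 9.40 and 13.1 RPKM in the CDK12-6 libraries, against 6.07, 4.56 and 6.79 RPKM in the luciferase libraries. All CDK12 siRNA libraries were higher, with a wide spread within each group, and the log2 fold change was 0.70 ± 0.18 (adjusted p = 0.016). Without luciferase AK41, the lowest control, the fold change was 0.56 and missed the threshold (adjusted p = 0.062).

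HK1, the hexokinase found in most tissues (ENSG00000156515, chr10:71029740-71161638), phosphorylates glucose and traps it in the cell. It had 5.39, 7.38 and 8.60 RPKM in the CDK12-2 libraries and 5.18, 6.48 and 8.24 RPKM in the CDK12-6 libraries, against 17.8, 12.9 and 18.0 RPKM in the luciferase libraries. The mean with CDK12 siRNA was 57.6% lower, the groups lay well apart, and the log2 fold change was -1.14 ± 0.17 (adjusted p = 0.00084). HK2, the inducible hexokinase of many tumours (ENSG00000159399, chr2:75061108-75120486), had 1.64, 2.03 and 2.48 RPKM in the CDK12-2 libraries and 1.55, 1.97 and 2.40 RPKM in the CDK12-6 libraries, against 3.28, 2.75 and 3.39 RPKM in the luciferase libraries. It lay lower in all 6 CDK12 siRNA libraries, by 0.47 on the log2 scale (log2 fold change -0.47 ± 0.12, adjusted p = 0.012), and missed the threshold without luciferase AK39 (adjusted p = 0.059) or AK49 (adjusted p = 0.061).

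In the upper part of glycolysis, where hexose phosphates are rearranged and split, 2 of 8 tested genes fell, where 19.7% of all genes did, and none rose. PFKP, the platelet-type phosphofructokinase and the main form in these cells (ENSG00000067057, chr10:3108525-3179904), had 42.9, 53.9 and 60.8 RPKM in the CDK12-2 libraries and 43.6, 50.2 and 62.4 RPKM in the CDK12-6 libraries, against 82.8, 65.7 and 84.6 RPKM in the luciferase libraries. Luciferase AK41 came within a few RPKM of the highest CDK12 siRNA library, and the log2 fold change was -0.57 ± 0.14 (adjusted p = 0.014). Without luciferase AK39 or AK49 the adjusted p was 0.069 in both cases.

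TPI1, triosephosphate isomerase (ENSG00000111669, chr12:6976283-6980112), had 237, 256 and 258 RPKM in the CDK12-2 libraries and 255, 263 and 269 RPKM in the CDK12-6 libraries, against 318, 292 and 300.1 RPKM in the luciferase libraries. The groups stood apart, and the log2 fold change of -0.24 ± 0.072 passed (adjusted p = 0.028). That call is the least stable of the 9: it was lost in 11 of 20 other settings, among them quantile normalization (fold change -0.10, adjusted p = 0.18), leaving out luciferase AK39 (adjusted p = 0.13) and leaving out luciferase AK49 (adjusted p = 0.081). For TPI1 the authors' deposited table gives a false discovery rate of 0.13. A named TPI1 pseudogene had a mean of 18.9 RPKM over the libraries.

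None of the other 6 tested upper-glycolysis genes passed the test. GPI, which converts glucose to fructose phosphate, had 15.7 RPKM with CDK12 siRNA and 16.3 RPKM with luciferase siRNA, and the sign of its log2 fold change of -0.06 turned under both other scalings (0.028 quantile normalized and 0.00995 scaled to reads in listed genes). The span of GPI overlaps RP11-618P17.4, which had 29.8 RPKM with CDK12 siRNA and 31.8 RPKM with luciferase siRNA. The liver-type and muscle-type phosphofructokinases PFKL and PFKM had log2 fold changes of -0.19 (adjusted p = 0.26) and -0.24 (adjusted p = 0.097). PFKFB3 and PFKFB4, which set the level of an activator of phosphofructokinase, had -0.26 (adjusted p = 0.26) and -0.15 (adjusted p = 0.30). ALDOA, the main aldolase, had 64.4 ± 12.5 RPKM with CDK12 siRNA and 80.3 ± 14.5 RPKM with luciferase siRNA, with overlapping groups (adjusted p = 0.20). The authors' deposited table gives ALDOA a log2 fold change of -0.33 with a false discovery rate of 0.031. ALDOC, the brain-type aldolase, was a trace form at 0.338 RPKM with CDK12 siRNA and 0.203 RPKM with luciferase siRNA, higher in all 6 CDK12 siRNA libraries. It had a log2 fold change of 0.73 and a false discovery rate of 0.0068 in the authors' deposited table. Its span overlaps that of RP11-192H23.4, which had 3.40 and 3.70 RPKM in the same groups.

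In the lower part of glycolysis, which yields ATP and pyruvate, 3 of 6 genes fell, where 19.7% of all genes did, and none rose. GAPDH, the most abundant member (ENSG00000111640, chr12:6643093-6647537), had 1020.2, 1120.1 and 1153 RPKM in the CDK12-2 libraries and 1131, 1194 and 1219.7 RPKM in the CDK12-6 libraries, against 1505, 1399.7 and 1480.2 RPKM in the luciferase libraries. The groups were clearly separate, with a mean 22.0% lower and a log2 fold change of -0.36 ± 0.084 (adjusted p = 0.0093). Its span overlaps RP5-940J5.9, listed at 2962 RPKM with CDK12 siRNA and 3850.1 RPKM with luciferase siRNA, and the table lists 58 named GAPDH pseudogenes, so part of the assignment of its reads is uncertain. GAPDH is often used to normalize expression in other assays.

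ENO1, the ubiquitous enolase (ENSG00000074800, chr1:8921061-8939308), had 298, 332 and 358 RPKM in the CDK12-2 libraries and 316, 339.8 and 358 RPKM in the CDK12-6 libraries, against 432, 407 and 426 RPKM in the luciferase libraries. Every CDK12 siRNA library was lower, with a log2 fold change of -0.34 ± 0.085 (adjusted p = 0.014), which missed the threshold without luciferase AK39 (adjusted p = 0.063) or AK49 (adjusted p = 0.056). ENO2, the enolase known from neurons and also induced by HIF (ENSG00000111674, chr12:7022909-7032861 in hg19), had 16.2, 19.0 and 22.4 RPKM in the CDK12-2 libraries and 16.3, 18.4 and 22.5 RPKM in the CDK12-6 libraries, against 47.0, 38.6 and 47.7 RPKM in the luciferase libraries. It was 56.9% lower on average, with no library near the other group. On the log2(RPKM + 1) scale ENO2 had the lowest fold change of the 29 members, -1.18 ± 0.13 (adjusted p = 0.00015). By mean RPKM, HK1 was slightly lower still, at 57.6% below luciferase siRNA against 56.9% for ENO2. The span of ENO2 overlaps LRRC23, which had 0.838 RPKM with CDK12 siRNA and 1.62 RPKM with luciferase siRNA.

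PGK1, PGAM1 and PKM, the phosphoglycerate kinase, the phosphoglycerate mutase and the pyruvate kinase of the remaining lower steps, did not pass the test. PGK1, a textbook HIF target, had 56.2 ± 3.43 RPKM with CDK12 siRNA and 59.2 ± 4.93 RPKM with luciferase siRNA, and its log2 fold change of -0.07 had a 95% interval of -0.25 to 0.10. PGAM1 had 123 RPKM with CDK12 siRNA and 115 RPKM with luciferase siRNA (adjusted p = 0.56), and PKM had 123 and 139 RPKM in the same groups (adjusted p = 0.32).

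Past pyruvate, LDHA, the lactate dehydrogenase subunit typical of glycolytic cells (ENSG00000134333, chr11:18415935-18429972 in hg19), had 72.3, 81.2 and 81.4 RPKM in the CDK12-2 libraries and 79.3, 85.5 and 80.6 RPKM in the CDK12-6 libraries, against 105, 104 and 101 RPKM in the luciferase libraries. The controls were tight and all above, and the log2 fold change was -0.37 ± 0.071 (adjusted p = 0.0035). PDK1, the HIF-induced kinase that shuts pyruvate out of the mitochondrial citrate cycle, was low and lay below the controls, at 0.357 ± 0.0228 RPKM with CDK12 siRNA and 0.493 ± 0.0420 RPKM with luciferase siRNA. The authors' deposited table gives it a log2 fold change of -0.48 with a false discovery rate of 0.0012. Its span overlaps AC093818.1, which had 2.80 RPKM with CDK12 siRNA and 5.02 RPKM with luciferase siRNA.

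Where a step is served by several isozymes, their shares of the summed RPKM moved as well. HK1 made up 77.3 ± 0.686% of the summed RPKM of HK1 and HK2 with CDK12 siRNA, between 76.7% and 78.5%, and 83.7 ± 1.07% with luciferase siRNA, between 82.5% and 84.5%. ENO2 made up 5.41 ± 0.414% of the summed RPKM of ENO1 and ENO2 with CDK12 siRNA, against 9.51 ± 0.748% with luciferase siRNA. HKDC1 (5.55 RPKM with CDK12 siRNA and 10.7 RPKM with luciferase siRNA) and ENO3 (28.8 and 42.1 RPKM), which are no members, are left out of these sums. The isozyme of a pair that falls more must hold less of the sum, so these shares restate the levels given above. In both pairs the ranges of the groups did not overlap. PFKP made up 82.3 ± 0.551% of the phosphofructokinase RPKM with CDK12 siRNA and 85.3 ± 0.274% with luciferase siRNA. The summed RPKM was 8.89 with CDK12 siRNA against 19.4 with luciferase siRNA for HK1 and HK2, 353 against 466 for ENO1 and ENO2 and 63.5 against 91.1 for the phosphofructokinases. PFKFB3 held 90.8% of its pair in both groups. Between the stanniocalcins, STC1 made up 16.9 ± 2.10% with CDK12 siRNA and 6.42 ± 1.19% with luciferase siRNA. These shares were not tested.

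**Figure D3:**
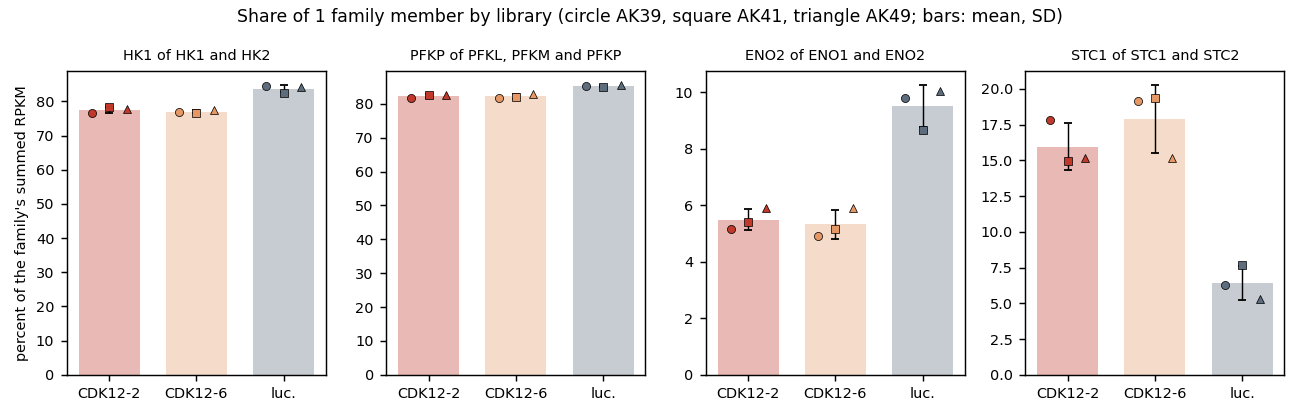
Share of 1 family member in the family's summed RPKM, in percent, by library (bars: mean and SD of CDK12-2, CDK12-6 and luciferase siRNA). The shares of HK1, PFKP and ENO2 are lower and that of STC1 is higher in all 6 CDK12 siRNA libraries than in the 3 controls.

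Taken one at a time, the siRNAs called nearly the same members. CDK12-2 raised 5 members and lowered 9, where 9.76% of all genes rose and 15.4% fell. CDK12-6 raised 4 and lowered 8, where 10.4% rose and 15.6% fell. These comparisons share the 3 luciferase libraries, so their likeness is no independent support. ANKRD37 (log2 fold change 0.22 with CDK12-2 and 0.19 with CDK12-6) and TPI1 (-0.28 with CDK12-2 and -0.21 with CDK12-6) passed with CDK12-2 and missed the threshold with CDK12-6 (adjusted p = 0.064 and 0.094). Between CDK12-2 and CDK12-6 no member differed, and the percentage of all genes that did was 0. At an unadjusted p under 0.05 the difference reached 0 members and 101 genes, and limma voom on recovered reads called 0. This contrast and its intervals leave out the AK numbers, which were taken to pair these libraries. With the AK number as block in the CDK12 siRNA libraries alone, limma called 0 members and 1 gene. A lack of calls does not show that the siRNAs act alike. STC2 had the widest member difference, at 10.5 ± 2.25 RPKM with CDK12-2 and 8.84 ± 1.91 RPKM with CDK12-6, which is 0.23 on the log2 scale with a 95% interval of -0.15 to 0.61. It was higher with CDK12-2 than with CDK12-6 under each AK number. For HK1 the difference was 0.09 (-0.34 to 0.52), and for ENO2 it was 0.01 (-0.32 to 0.34).

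Within each group most members were lowest or highest in the same library, as were most genes. Of the 29 tested members, 27 were lowest in CDK12-2 AK39 among the CDK12-2 libraries, 26 were lowest in CDK12-6 AK39 among the CDK12-6 libraries, and 21 were lowest in luciferase AK41 among the controls. Over all genes tested these shares were 77.6%, 68.9% and 64.4%. The same 3 libraries had the most RNA without a poly(A) tail. In AK49, by contrast, 26 members were highest among the CDK12-2 libraries and 21 among the CDK12-6 libraries, against 69.3% and 63.5% of all genes tested. The median deviation of the members from their group mean was -0.18 in CDK12-2 AK39, -0.17 in CDK12-6 AK39 and -0.14 in luciferase AK41 on the log2 scale, and 0.17 and 0.15 in the AK49 libraries of CDK12-2 and CDK12-6. Over all genes tested it was -0.13, -0.10 and -0.09 in the same 3 libraries, and 0.11 and 0.10 in those AK49 libraries. Across the 29 members the Spearman correlation of the deviation with transcript GC content was between -0.60 (CDK12-6 AK41) and 0.45 (CDK12-6 AK49), as a description of genes that share each library. Its part in the results was not tested. Without the 3 libraries richest in RNA lacking a poly(A) tail, 8 of the 9 members that fell and 4 of the 5 that rose were still called, with TPI1 and ANKRD37 as the exceptions. Over all genes 15.1% rose and 18.8% fell without these 3 libraries.

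**Figure D4:**
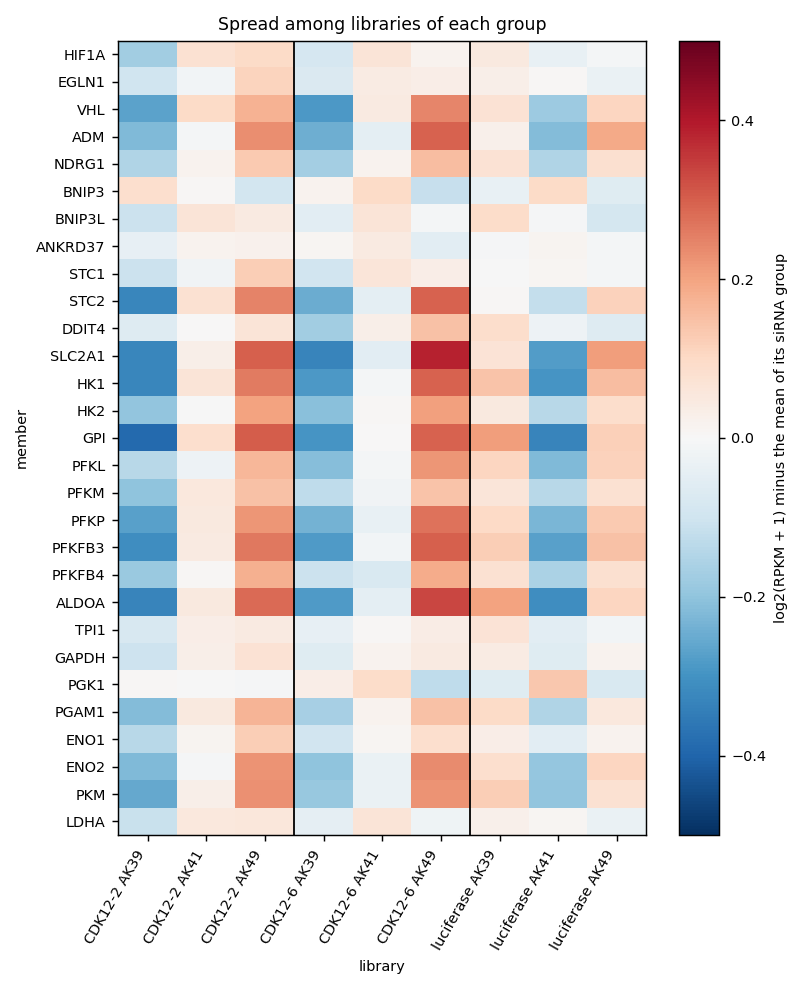
Deviation of each tested member in each library from the mean of its siRNA group, in log2(RPKM + 1). Blue columns stand out for CDK12-2 AK39, CDK12-6 AK39 and luciferase AK41, and red columns for the AK49 libraries of both CDK12 siRNAs.

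Other genes of the same pathways were given by lists, whose counts stand beside the 13.3% of all genes that rose and the 19.7% that fell. Of 10 tested genes of the HIF machinery, 1 rose and none fell. It was CITED2, a HIF target that competes with HIF for its coactivators, at 49.9 ± 4.45 RPKM with CDK12 siRNA and 30.3 ± 2.18 RPKM with luciferase siRNA (log2 fold change 0.70, adjusted p = 0.00041). Of 23 further HIF targets 3 rose and 4 fell, with a median of -0.00026. P4HA1, a collagen prolyl hydroxylase subunit, rose by 0.91 (22.4 and 11.4 RPKM with CDK12 and luciferase siRNA), EDN1, the vasoconstrictor endothelin, by 0.72 (2.61 and 1.19 RPKM), and KDM3A, a histone demethylase, by 0.51 (4.80 and 3.07 RPKM). GBE1, the glycogen branching enzyme, had a log2 fold change of -0.49 (14.7 ± 0.798 RPKM with CDK12 siRNA and 21.1 ± 0.444 RPKM with luciferase siRNA). The other 3 that fell were IGFBP3, an insulin-like growth factor binding protein (-0.53), JMJD6 (-0.52) and the glucose transporter SLC2A3 (-0.39).

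Of 13 further tested glycolysis and lactate genes, 3 rose and 4 fell (13.3% and 19.7% among all genes). HKDC1, a hexokinase homologue next to HK1 on chromosome 10, had 5.55 ± 0.479 RPKM with CDK12 siRNA and 10.7 ± 0.495 RPKM with luciferase siRNA (log2 fold change -0.84, adjusted p = 8.5e-05). LDHC, the testis-type lactate dehydrogenase (-0.49), BPGM, bisphosphoglycerate mutase (-0.41), and ENO3, the muscle-type enolase (-0.53), fell as well. PFKFB2 (0.32), which passed the filter only through CDK12 siRNA libraries, C12orf5, now called TIGAR, a phosphatase that slows glycolysis (0.29), and SLC16A1, a lactate transporter (0.34), rose.

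At the entry of pyruvate into mitochondria 3 of 11 tested genes rose and 3 fell (13.3% and 19.7% among all genes). MPC1, a subunit of the mitochondrial pyruvate carrier, had 4.10 ± 0.172 RPKM with CDK12 siRNA and 2.36 ± 0.0962 RPKM with luciferase siRNA (log2 fold change 0.60, adjusted p = 0.00013). PDK2, a relative of PDK1, had 6.30 ± 1.07 RPKM with CDK12 siRNA and 3.68 ± 0.506 RPKM with luciferase siRNA (0.63, adjusted p = 0.0057), and PDHX, a pyruvate dehydrogenase component, rose by 0.25. The other pyruvate dehydrogenase components DLD (-0.44), DLAT (-0.33) and PDHA1 (-0.31) fell. In the pentose phosphate pathway 1 of 7 genes rose, RPE (0.29, adjusted p = 0.049), with overlapping libraries and a call lost in 16 of 20 other settings.

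**Figure D5:**
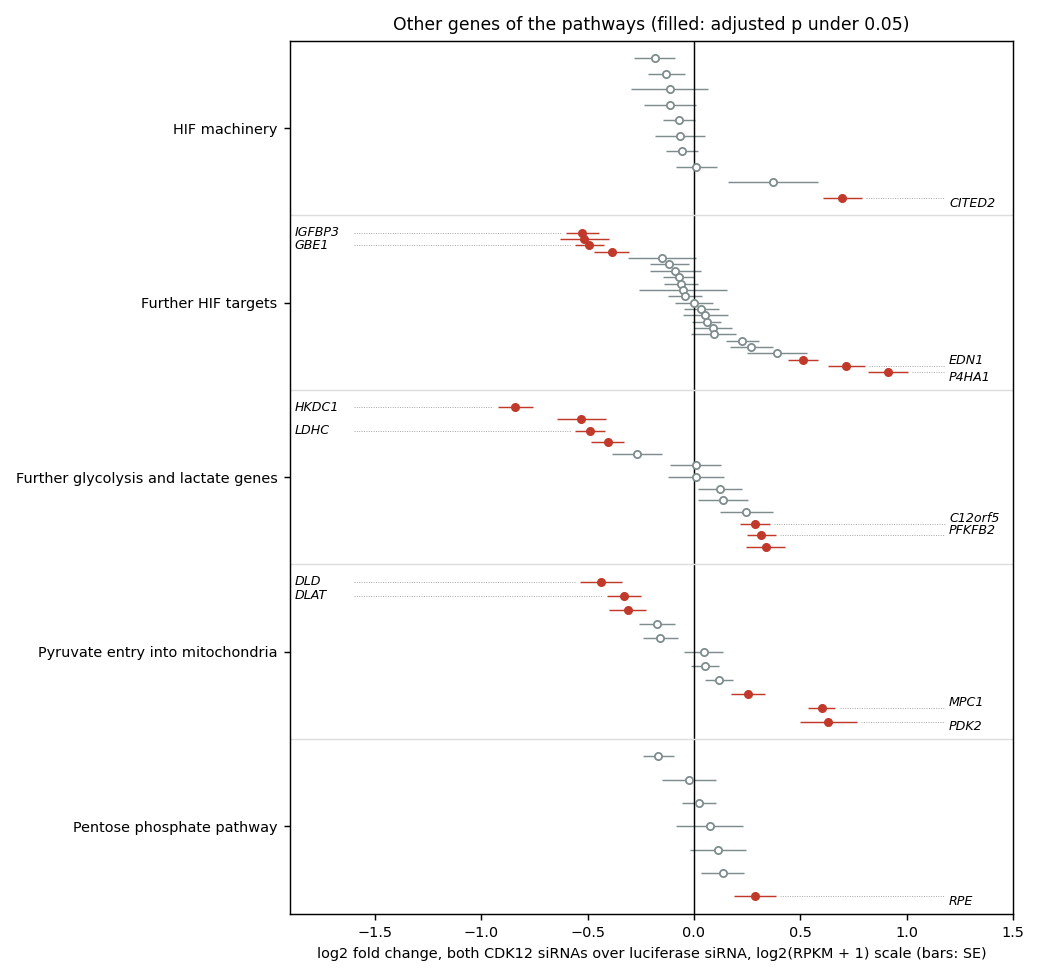
Log2 fold change of both CDK12 siRNAs over luciferase siRNA for the tested genes of 5 further lists, on the log2(RPKM + 1) scale (bars: SE, filled red: adjusted p under 0.05, with the 2 genes of lowest adjusted p in each direction named). CITED2 stands alone in the HIF machinery, and the further HIF targets run from IGFBP3 at -0.53 to P4HA1 at 0.91.

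An earlier analysis of these data singled out the letters GTGGGCA in 3′ UTRs, so their presence is given for the members. In GENCODE 29 transcripts, 5 of the 36 members hold them on the transcript strand, namely HK1, ENO1, PFKFB4, VHL and CA12. A pair of 3′ UTR stretches from members that fell are shown with these letters in capitals.
HK1 (chromosome 10): tgaaggcgagtGTGGGCAtagcattagctg
ENO1 (chromosome 1): gctGTGGGCAggcaagcccttc
ENO2, LDHA, HK2, PFKP, TPI1, GAPDH and ADM, which also fell, do not hold them. PFKFB4 and VHL, which hold them, did not pass the test, and CA12 was not tested. Among 10912 tested genes with an annotated 3′ UTR, 16.3% hold the letters, and 27.4% of those fell, against 19.4% of the genes without them. This is a description of letters, with no test. Because the letters were singled out in these same data, the difference between the 2 shares is no independent result.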

How the data were processed

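Polyadenylated RNA of 9 libraries was sequenced by the submitters. The authors deposited RPKM values, reads per kilobase and per 1000000 reads, of 57773 genes on build hg19. Per the submitters' processing notes the tools were TopHat2, featureCounts and edgeR. The gene annotation behind them was not given in the sources used here. In the same table, the authors deposited a log2 fold change and an adjusted p-value (false discovery rate) for 1 comparison, per the file headers. The headers do not name its libraries, and it was read as both CDK12 siRNAs over luciferase siRNA because its sign follows that ratio of mean RPKM in all 36 members. Multiplied by gene length plus 1 base, 100% of the values were whole multiples of a step, within 0.001, which gave the reads and library sizes.

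The values were analysed as log2(RPKM + 1) with limma 3.58.1 (eBayes with a trend) in R 4.3.3. The 15208 genes that reached 1 RPKM in at least 3 libraries were tested, all 9 libraries and 3 groups in 1 fit, with Benjamini-Hochberg adjustment over all genes tested and a threshold of 0.05. Fold changes understate those of genes near 1 RPKM. With 104963048 to 131472019 reads in genes per library, the spread between libraries and not counting limits the precision of most members. The steps were tested on simulated data.

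The members and lists were chosen with earlier results of these data known, and 1 gene of a further list is not reported here. Values in every library are given for CDK12, HIF1A, EPAS1 and up to 7 higher and 7 lower members of lowest adjusted p, and 2 more lower members were added after their values were seen, as were further list genes past the best 2 in each direction. Promoters come from RefSeq GRCh38.p14 and 3′ UTRs from GENCODE 29, with no coordinates moved between builds. Deviations from group means correlated between same-numbered CDK12-2 and CDK12-6 libraries (0.76 for AK39, 0.13 for AK41 and 0.81 for AK49) and unevenly between these and luciferase (with CDK12-2 and CDK12-6: -0.56 and -0.51 for AK39, -0.13 and 0.47 for AK41, 0.65 and 0.75 for AK49). Libraries of different numbers correlated from -0.83 (luciferase AK41 with CDK12-6 AK49) to 0.80 (luciferase AK41 with CDK12-6 AK39). Among the CDK12 siRNA libraries, CDK12-2 AK39 and CDK12-6 AK41 reached 0.31, above the 0.13 of the AK41 pair. The correlations thus do not establish pairing by AK number. Since not every same-numbered pair with the controls exceeded 0.1, the AK numbers were taken to pair the CDK12 siRNA libraries only. The main fit did not use this pairing and took all CDK12 siRNA libraries as separate. Its standard errors and adjusted p-values, and the SDs over both siRNAs, do not allow for what same-numbered libraries share. Alternatives were other scalings, pseudocounts, filters, a replicate block, voom on recovered reads and left-out libraries.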

Additional observations from a re-analysis of the deposited data

How the results depend on the processing

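Under settings that kept all libraries, the counts of members that moved by over 1.5 times were these. With both siRNAs, 8 members rose with quantile normalization and 8 when scaled to reads in listed genes, in place of 5. With CDK12-2, 8 rose when scaled to reads in listed genes, and 3 fell, in place of 9, with no filter on low values. With CDK12-6, 7 rose with quantile normalization and 8 when scaled to reads in listed genes, in place of 4, and 3 fell with no filter, in place of 8. Over all genes, quantile normalization called 3255 higher and 3341 lower, and scaling to reads in listed genes 3391 and 3149, in place of 2027 and 2997. With CDK12-2, 18.9% of all genes rose when scaled to reads in listed genes. With CDK12-6, 17.6% rose with quantile normalization and 18.5% when scaled to reads in listed genes. With no filter, 5.01% of all genes fell with CDK12-2 and 5.07% with CDK12-6, in place of 15.4% and 15.6%. With no filter more genes enter the adjustment, and of the 7 members then added only EGLN3 was called, as higher in each comparison with luciferase, while SLC2A1 was the higher call lost in each. Voom on recovered reads, chosen after seeing the data, gave the counts of the original setting in each comparison.

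With single libraries left out, the members that rose numbered 3 to 6 and those that fell 4 to 9 with both siRNAs, 3 to 5 and 3 to 9 with CDK12-2, and 3 to 4 and 2 to 8 with CDK12-6. With 1 AK number left out in all groups they numbered 3 to 4 and 2 to 8, 2 to 4 and 2 to 6, and 2 to 3 and 2 to 5 in the same order. Over all genes, with single libraries left out, 8.77% to 15.4% rose and 10.8% to 22.2% fell with both siRNAs. The ranges were 5.61% to 12.1% and 8.25% to 16.9% with CDK12-2, and 5.87% to 11.5% and 8.09% to 17.6% with CDK12-6. With 1 AK number left out, 3.62% to 11.8% of all genes rose and 7.37% to 15.6% fell with both siRNAs. These were 1.76% to 8.12% and 3.42% to 10.7% with CDK12-2, and 2.06% to 6.88% and 3.54% to 10.6% with CDK12-6. With both siRNAs in 1 contrast, HK1 and ENO2 alone kept their lower call in all 20 settings, as STC1, STC2 and DDIT4 kept their higher call. For each siRNA alone, DDIT4 was lost without AK41 in all groups. GPI, called in no setting, had a log2 fold change of -0.06 as deposited, 0.028 with quantile normalization and 0.00995 when scaled to reads in listed genes. It lay between -0.22 and 0.048 with single libraries left out and between -0.24 and 0.22 with 1 AK number left out. The cause was not tested. The difference between CDK12-2 and CDK12-6 stayed at 0 members throughout.

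With the AK number as replicate block, 5 members rose and 10 fell with both siRNAs, PFKM being gained (adjusted p = 0.048 by limma). Over all genes 16.6% rose and 24.5% fell with this block. No other call of a member changed. With the block and the 6 CDK12 siRNA libraries alone, 0 members differed. The planned negative binomial tests on recovered reads were not run, since the deposited unit is RPKM.

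The limits are few: libraries of a group are technical replicates, strand is not marked, the 7 members under 1 RPKM were tested only with no filter on low values, and protein, enzyme activity and lactate were not measured. Not every listed gene that overlaps a member is named here.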

Other observations

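Several of the members that fell lie near each other or near a related gene, which was noticed after the values were seen. How often neighbouring genes fall together was not counted, and 19.7% of all genes fell. Other genes of these stretches are not given. GAPDH (chr12:6643093-6647537), TPI1 (chr12:6976283-6980112) and ENO2 (chr12:7022909-7032861) lie on the same stretch of hg19 chromosome 12, with log2 fold changes of -0.36, -0.24 and -1.18. HKDC1 (chr10:70980059-71027315) ends shortly before HK1 (chr10:71029740-71161638) begins, and they had -0.84 and -1.14. LDHA (chr11:18415935-18429972) and LDHC (chr11:18433854-18473605) are likewise neighbours, with -0.37 and -0.49.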
